A study of Homo sapiens with 4 samples.

Results

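The constitutive proteasome subunits were followed in MDA-MB-361 cells, an established HER2+ luminal breast cancer line, after shRNA against DCD. The list held 36 genes, 14 of the core particle (PSMA1 to PSMA7 and PSMB1 to PSMB7), 20 of the regulatory cap (PSMC1 to PSMC6 and PSMD1 to PSMD14) and the alternative activators PSME3 and PSME4. A gene was read by its brightest probe set among those annotated to that gene alone, by the mean log2 value over all arrays. This left 32 of the 36 members, among 12728 genes tested. They were 13 core genes, 17 cap genes and both activators, and all 32 passed the filter on low values. PSMA6 was read only by 2 probe sets shared with other genes, and PSMC5, PSMD7 and PSMD13 had no named probe set of their own, so these 4 genes were not analysed here.

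RNA was hybridized to 4 Affymetrix U133 Plus 2.0 arrays, 1 for each of 3 derivatives expressing DCD shRNA from the lentiviral vector pLKO and 1 for cells carrying the pLKO vector without such a hairpin. The labels call the derivatives clones 1, 2 and 3, and by these numbers they were matched to IBC-I to IBC-III of the study. Each carries a hairpin against a different region of the DCD transcript, so the 3 arrays are not repeats of 1 construct, and the single pLKO array is shared by all 3 comparisons. All 4 arrays share the parental line, the vector backbone and the culture medium recommended for the line.

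The proteasome is the protease that degrades ubiquitin-tagged proteins in the cytosol and nucleus. Its core is a barrel of stacked rings, in which outer rings of alpha subunits (PSMA genes) gate the entrance and inner rings of beta subunits (PSMB genes) carry the proteolytic sites. The cap binds the barrel's end through a base, whose ring of ATPases (PSMC genes) unfolds the substrate, and through a lid (several PSMD genes), which removes the ubiquitin chain. PSMD5, PSMD9 and PSMD10 are chaperones that help the base assemble and leave the finished particle. Proteasome genes are expressed in all cell types, and breast cancer cells, like other tumor cells, depend on the complex to clear surplus and misfolded proteins.

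The arrays differed in signal and in RNA quality. The mean deposited intensity was 84.6 in clone 1, 153 in clone 2 and 53.7 in clone 3, against 125 in pLKO. The ACTB control probe sets gave a 3'/5' ratio, which is high where RNA is degraded or labelling is incomplete, of 9.67 in clone 1, 2.58 in clone 2 and 42.6 in clone 3, against 5.29 in pLKO. The GAPDH control probe sets gave 2.18 in clone 1, 1.02 in clone 2 and 13.1 in clone 3, against 1.09 in pLKO. Clone 3 was thus the dimmest array with the highest ratios, and clone 2 the brightest with the lowest. DCD itself had intensities of 7.0, 6.0 and 2.7 in clones 1, 2 and 3, against 2.0 in pLKO, all under the floor of 16 set for low values, so the arrays do not check the knockdown. The study reported the knockdown from other assays, with RT-PCR for the mRNA and immunocytochemistry and immunoblots for the protein. Of the luminal and HER2 markers, 10 of 10 passed the filter on low values. Of 4 leukocyte markers, 2 had a probe set, and their highest normalized intensity was 18.0 on any array. Intensities were quantile normalized and compared as log2 of a clone minus log2 of pLKO, so a difference of 1 is a doubling.

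The members differed from pLKO in a different way in each clone. In clone 1, 16 of the 32 were higher than pLKO and 16 lower, beside 50.4% and 48.5% of all genes tested. In clone 2, 30 were higher and 2 lower, beside 49.3% and 49.2%. In clone 3, 8 were higher and 24 lower, beside 45.4% and 53.8%. The median log2 difference of the members was -0.04 in clone 1, 0.53 in clone 2 and -0.65 in clone 3, beside 0.01, 0.00 and -0.11 over all genes. In clone 2 most members therefore stood above pLKO, and in clone 3 most stood below it. The ACTB 3'/5' ratio ran in the reverse order of these medians. It was lowest in clone 2 (2.58), then pLKO (5.29), clone 1 (9.67) and clone 3 (42.6). The GAPDH ratio had the same order. The part of RNA quality in the members' differences was not tested. An array of RNA from a whole culture cannot tell apart fewer cells that express a gene and less RNA per cell.

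**Figure D1:**
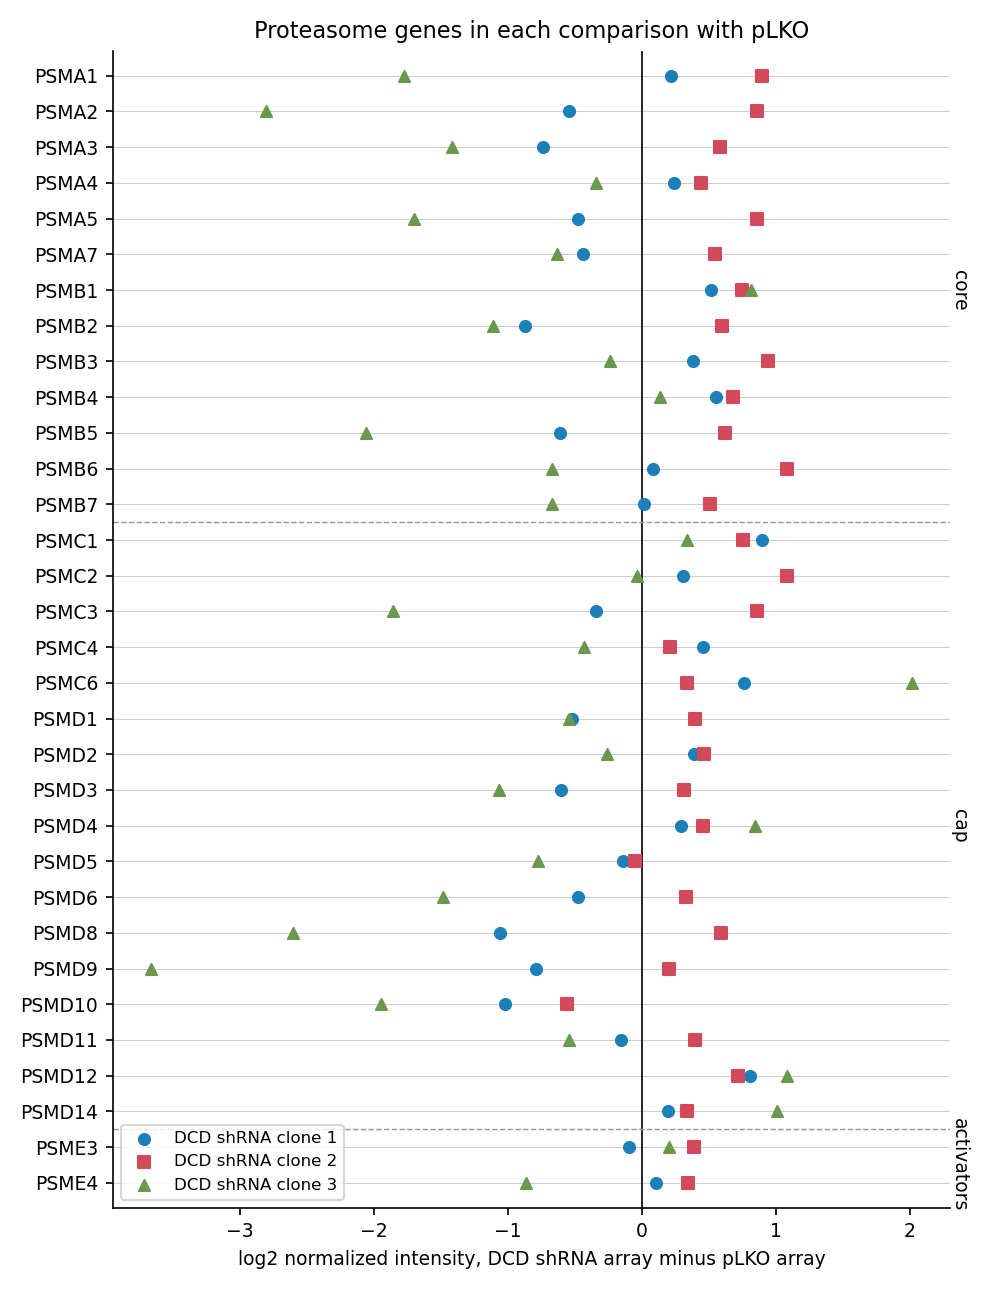
Log2 difference from pLKO (horizontal axis) of each of the 32 members (vertical axis), with a marker for each DCD shRNA clone and a line at 0 for pLKO. The clone 2 markers lie right of 0 for all members but PSMD5 and PSMD10, and the clone 3 markers spread from -3.66 for PSMD9 to 2.02 for PSMC6.

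The members' log2 differences ran from -0.56 to 1.08 in clone 2 and from -3.66 to 2.02 in clone 3. In clone 2, 14 of 32 members were at least 1.5-fold higher and 0 were at least 1.5-fold lower, where 11.5% of all genes were that much higher and 13.3% that much lower. In clone 3, 5 members were at least 1.5-fold higher and 17 at least 1.5-fold lower, beside 26.0% and 34.6% of all genes. In clone 1 the counts were 3 and 7, beside 19.1% and 20.4%. No member reached the study's rule of at least 3-fold in all 3 comparisons, which 0.0157% of genes met upward and 0.181% downward. These shares rest on the scaling, floor and choice of probe set used here. The study's own counts by this rule, from its own processing, were larger.

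Of the 32 members, 7 were higher in all 3 clones, 2 were lower in all 3, and 23 went both ways. Higher in all 3 were 18.8% of all genes tested, and lower in all 3 were 21.3%, so 7 of 32 lies near the background and 2 of 32 below it. These counts rest on single arrays. Without clone 1, 2 members were lower and 8 higher in both remaining comparisons, beside 29.3% and 24.2% of genes. Without clone 2, 15 members were lower in both remaining comparisons, as were 34.2% of genes, and without clone 3, 16 were higher in both, as were 31.2% of genes. The direction also rests on the scaling. With each array centred on its median, 2 members were higher in all 3 (PSMC6 and PSMD12) and 1 was lower (PSMD10), beside 11.8% and 27.2% of all genes. With the values as deposited, 1 was higher (PSMC6) and 1 lower (PSMD10), beside 7.24% and 20.4%.

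The 7 higher members came from the beta ring, the ATPase ring and the non-ATPase subunits of the cap. PSMD12, a scaffold subunit of the lid, had normalized intensities of 868, 814 and 1048 in clones 1, 2 and 3, against 495 in pLKO. It had the largest smallest change among the 7, at log2 0.72, and a mean difference of 0.87 ± 0.19 (SD, n = 3). PSMB1, a structural subunit of the beta ring, had 2388, 2795 and 2933 in the clones, against 1668 in pLKO, a mean log2 difference of 0.69 ± 0.16. By the brightest probe set of both genes, all 3 clones lay above pLKO. Centring on the median put PSMB1 below pLKO in clones 1 and 3, at log2 -0.18 and -0.12. The values as deposited put PSMD12 below it in clone 3 (-0.44) and PSMB1 below it in clones 1 and 3 (-0.22 and -0.74).

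A pair of ATPases, which thread the substrate into the core, were also higher in every clone. PSMC1 had normalized intensities of 1197, 1084 and 811 in clones 1, 2 and 3, against 642 in pLKO, and a mean log2 difference of 0.66 ± 0.29. PSMC6 had 286, 213 and 683 in the clones, against 169 in pLKO, with a mean of 1.04 ± 0.87. PSMC1 was thus furthest above pLKO in clone 1, and PSMC6 in clone 3, at 4.05-fold. Only PSMC6 kept its direction in all 3 clones under both other scalings, and PSMC1 lay below pLKO in clone 3 under each of them, at log2 -0.51 when centred and -1.13 as deposited.

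The other 3 were PSMD4, PSMD14 and PSMB4. PSMD4, a receptor that binds ubiquitin chains, had normalized intensities of 507, 568 and 743 in clones 1, 2 and 3, against 414 in pLKO. PSMD14, the deubiquitinase of the lid that cuts the chain off the substrate, had 774, 857 and 1360, against 676 in pLKO. Both were furthest from pLKO in clone 3, at 1.80-fold for PSMD4 and 2.01-fold for PSMD14. PSMB4, another structural beta subunit, had 1063, 1159 and 796 in the clones, against 724 in pLKO, and its smallest difference was 1.10-fold in clone 3. In clone 1 the direction turned under both other scalings for all 3 genes. Centred and as deposited, the log2 differences there were -0.38 and -0.42 for PSMD4, -0.51 and -0.55 for PSMD14 and -0.13 and -0.18 for PSMB4. In clone 3, PSMB4 turned to -0.71 and -1.33, while PSMD4 and PSMD14 turned only as deposited, to -0.61 and -0.54.

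The 2 members lower in all 3 clones, PSMD10 and PSMD5, are both assembly chaperones of the base. PSMD10, also known as gankyrin and described as an oncoprotein in liver cancer, had normalized intensities of 161, 221 and 84.5 in clones 1, 2 and 3, against 326 in pLKO. Its mean log2 difference was -1.18 ± 0.71 (SD, n = 3), and it was lower in all 3 clones under both other scalings too. PSMD5 had 416, 443 and 269 in the clones, against 459 in pLKO, and in clone 2 it was only 1.04-fold lower. Its difference in clone 2 was positive under both other scalings, at log2 0.11 when centred and 0.37 as deposited. PSMD9, the third chaperone of the base among the members, had 204, 405 and 27.8, against 352 in pLKO, so it was lower in clones 1 and 3 and higher in clone 2. PAAF1, a further base chaperone that was not on the list of members, went the same ways as PSMD9, with log2 differences of -0.39, 0.45 and -1.77 in clones 1, 2 and 3, the last with clone 3 at the floor.

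**Figure D2:**
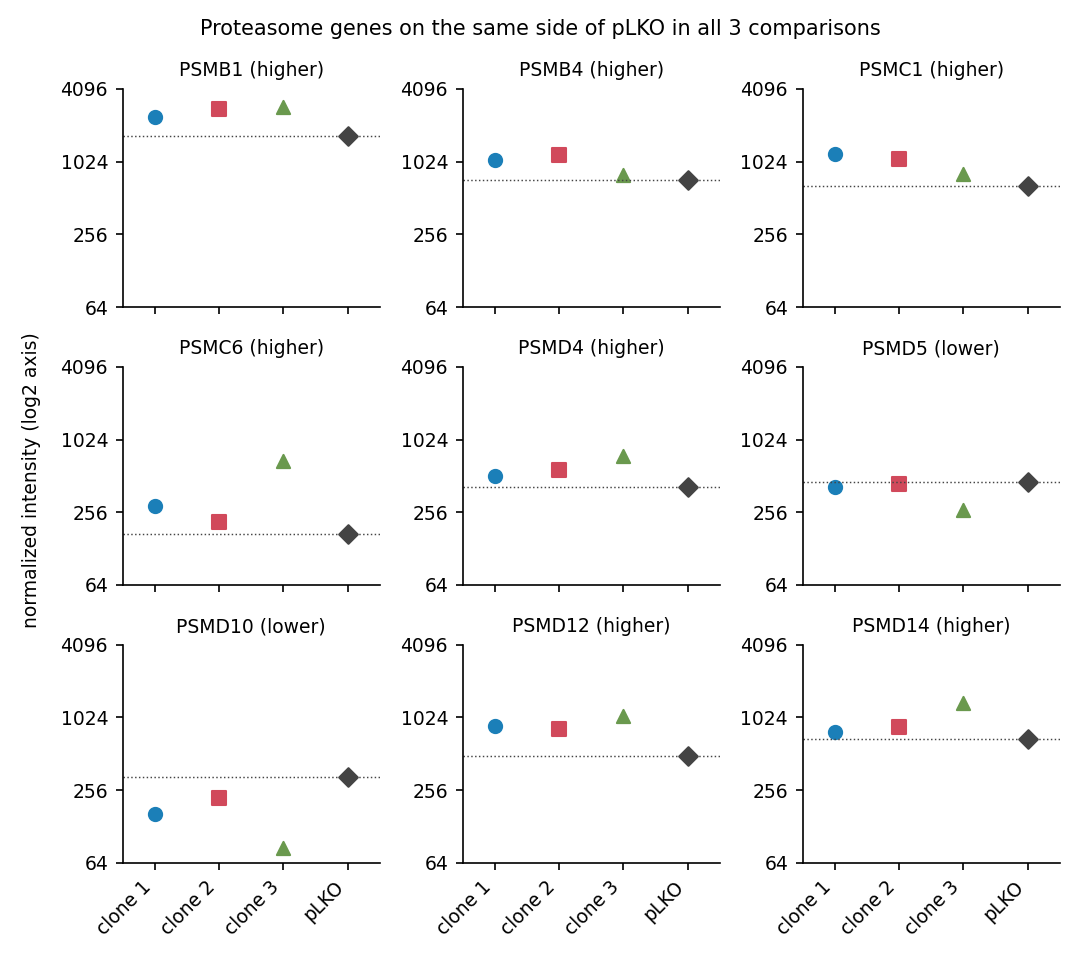
Normalized intensity (vertical axes, log2 scale) of the 9 members that lay on the same side of pLKO in all 3 clones, with 1 point for each array and a dotted line at the pLKO value. PSMD12 and PSMB1 show the 3 clones close together above pLKO, while PSMD5 in clone 2 is at 443, next to 459 in pLKO.

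Proteasome genes are known to share promoter elements, and the promoters of 4 of these 9 members are shown so that the higher and lower genes can be set side by side. The windows run from 250 bases before to 50 bases after the annotated start in RefSeq, build GRCh38.p14, in which 31 of the 36 members, and 7 of the 9, had an entry. PSMD12 lies at chr17:67366528-67366827 on the minus strand and PSMD14 at chr2:161308175-161308474 on the plus strand. PSMD10 lies at chrX:108091493-108091792 and PSMD5 at chr9:120842873-120843172, both on the minus strand. Capitals mark matches on either strand to TGACNNNGC, the core of the antioxidant response element, to CCAAT, and to TTCCGG, the core of an ETS family site.
PSMD12: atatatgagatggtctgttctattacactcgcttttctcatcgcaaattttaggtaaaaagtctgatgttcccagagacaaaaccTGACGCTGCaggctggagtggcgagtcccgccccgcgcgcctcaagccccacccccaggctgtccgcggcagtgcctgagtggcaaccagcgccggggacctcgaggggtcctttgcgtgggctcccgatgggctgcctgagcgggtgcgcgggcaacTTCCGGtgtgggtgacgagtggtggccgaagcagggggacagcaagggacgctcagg
PSMD14: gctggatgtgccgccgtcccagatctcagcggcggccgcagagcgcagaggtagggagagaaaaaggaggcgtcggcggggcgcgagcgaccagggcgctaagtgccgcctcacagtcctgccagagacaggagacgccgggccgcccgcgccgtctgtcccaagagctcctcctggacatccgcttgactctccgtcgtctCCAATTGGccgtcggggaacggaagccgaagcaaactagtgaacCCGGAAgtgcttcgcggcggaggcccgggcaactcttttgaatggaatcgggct
PSMD10: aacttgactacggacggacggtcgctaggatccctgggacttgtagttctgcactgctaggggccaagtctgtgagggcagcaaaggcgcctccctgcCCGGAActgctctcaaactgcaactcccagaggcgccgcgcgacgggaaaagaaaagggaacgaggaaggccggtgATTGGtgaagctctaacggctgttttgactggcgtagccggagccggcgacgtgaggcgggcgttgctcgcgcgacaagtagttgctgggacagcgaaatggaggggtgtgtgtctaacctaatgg
PSMD5: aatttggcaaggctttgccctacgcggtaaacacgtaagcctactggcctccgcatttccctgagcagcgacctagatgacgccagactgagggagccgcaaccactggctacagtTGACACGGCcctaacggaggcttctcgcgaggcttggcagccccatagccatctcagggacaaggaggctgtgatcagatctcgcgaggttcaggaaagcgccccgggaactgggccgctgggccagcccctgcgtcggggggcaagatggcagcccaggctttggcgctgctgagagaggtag
The higher PSMD12 held TGACNNNGC and TTCCGG, and the higher PSMD14 held TTCCGG and 2 matches to CCAAT, 1 on each strand, which overlap each other. The lower PSMD10 held CCAAT and TTCCGG, and the lower PSMD5 held TGACNNNGC. No motif was in both genes of 1 direction and in neither of the other, but 2 genes a side are too few to compare motifs by direction. Among the higher genes with an entry that are not shown, PSMC1 and PSMC6 held TTCCGG alone and PSMB4 held none of these motifs. Over the 37 windows of the members, TTCCGG was in 19 (51.4%), beside 17.2% of all 35116 windows and 21.2% of protein-coding ones. CCAAT was in 17 (45.9%), beside 34.6% of all windows, and TGACNNNGC in 10 (27.0%), beside 13.3%. A match describes the letters in the window and not a bound site. NFE2L1, the transcription factor known to drive proteasome genes through antioxidant response elements when the protease is inhibited, had log2 differences of -0.03, 0.22 and -0.39 in clones 1, 2 and 3.

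Within the core, every gene read was higher in clone 2 and most were lower in clone 3. All 13 core genes were higher than pLKO in clone 2, by log2 0.44 (PSMA4) to 1.08 (PSMB6), beside 49.3% of all genes tested. Of the 13, 9 were at least 1.5-fold higher, beside 11.5% of all genes. In clone 3, 11 of the 13 were lower and 2 were higher, PSMB1 and PSMB4, beside 53.8% and 45.4% of all genes. Clone 1 was divided, with 7 higher and 6 lower, beside 50.4% and 48.5% of all genes.

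The catalytic subunits followed this pattern. PSMB5, which carries the chymotrypsin-like site and is the main target of the inhibitor bortezomib, had normalized intensities of 555, 1305 and 204 in clones 1, 2 and 3, against 847 in pLKO. PSMB6, with the caspase-like site, had 538, 1073 and 318, against 507 in pLKO. PSMB7, with the trypsin-like site, had 743, 1042 and 462, against 733 in pLKO. All 3 were highest in clone 2 and lowest in clone 3, while in clone 1 PSMB6 and PSMB7 lay within 1.06-fold of pLKO and PSMB5 was 1.53-fold lower. The remaining beta subunits are structural. PSMB3 had log2 differences of 0.38, 0.94 and -0.24 in clones 1, 2 and 3, and PSMB2 had -0.87, 0.60 and -1.11.

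The alpha ring had the lowest median of the 2 core rings in clone 3. Its 6 members had a median log2 difference of -0.46 in clone 1, 0.72 in clone 2 and -1.56 in clone 3, against 0.09, 0.68 and -0.67 for the 7 members of the beta ring. The alpha minus beta difference was -0.54, 0.04 and -0.89, with a mean of -0.46 ± 0.47 (SD, n = 3), so it was no larger than its spread between clones. PSMA2 was the furthest from pLKO in clone 3, with normalized intensities of 410, 1082 and 85.8 in clones 1, 2 and 3, against 598 in pLKO. PSMA1 had 773, 1239 and 194, against 664 in pLKO, and PSMA5 had 211, 531 and 90.3, against 293 in pLKO. These 3 alpha subunits had their highest value in clone 2 and their lowest in clone 3. PSMA3, PSMA4 and PSMA7 were also highest in clone 2 and lowest in clone 3, with clone 3 differences of -1.41, -0.34 and -0.63.

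Within the cap, the ATPase ring had a higher median than the lid in each clone, a difference that was not tested. The 5 ATPases read had a median log2 difference of 0.46 in clone 1, 0.76 in clone 2 and -0.03 in clone 3. Besides PSMC1 and PSMC6, PSMC2 had differences of 0.31, 1.08 and -0.03, PSMC4 had 0.46, 0.21 and -0.43, and PSMC3 had -0.34, 0.86 and -1.86. PSMC3 alone among them was lower in clone 1. The base as a whole, the ATPases with the large scaffold subunits PSMD1 and PSMD2, had medians of 0.39, 0.46 and -0.26, against -0.31, 0.37 and -0.80 for the 6 lid subunits. The base minus lid difference was 0.70, 0.09 and 0.54, a mean of 0.45 ± 0.32 (SD, n = 3).

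The lid held members on opposite sides. Beside the higher PSMD12 and PSMD14, PSMD8 had log2 differences of -1.06, 0.59 and -2.60 in clones 1, 2 and 3, and was 6.07-fold lower than pLKO in clone 3. The other lid subunits PSMD3, PSMD6 and PSMD11 were also lower in clones 1 and 3 and higher in clone 2, with clone 3 differences of -1.06, -1.48 and -0.54. In the base, PSMD2 had differences of 0.39, 0.46 and -0.26, and PSMD1 had -0.52, 0.40 and -0.54. By its brightest probe set PSMD9 had the largest difference of any member on any array, 12.7-fold lower in clone 3, but its other tested probe set was higher than pLKO there, at log2 0.59.

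Core and cap were then compared as groups. The core minus cap difference of median log2 differences was 0.16 in clone 1, 0.28 in clone 2 and -0.13 in clone 3. Its mean was 0.10 ± 0.21 (SD, n = 3), which is smaller than the spread between clones. The core median was 0.02, 0.68 and -0.67 in clones 1, 2 and 3, against -0.14, 0.40 and -0.54 for the cap. Leaving the 3 chaperones out of the cap turned the sign in clone 1 and gave -0.23, 0.25 and -0.33. In clone 2 the core was above the cap under all 11 alternatives tried, by 0.12 to 0.32. These were not 11 separate checks, as floors of 1 and 64 left it at 0.28 and both other scalings gave 0.21. In clone 1 and clone 3 the sign changed with the choice of probe set. The difference between core and cap in clone 2 rests on 1 array and was not tested.

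**Figure D3:**
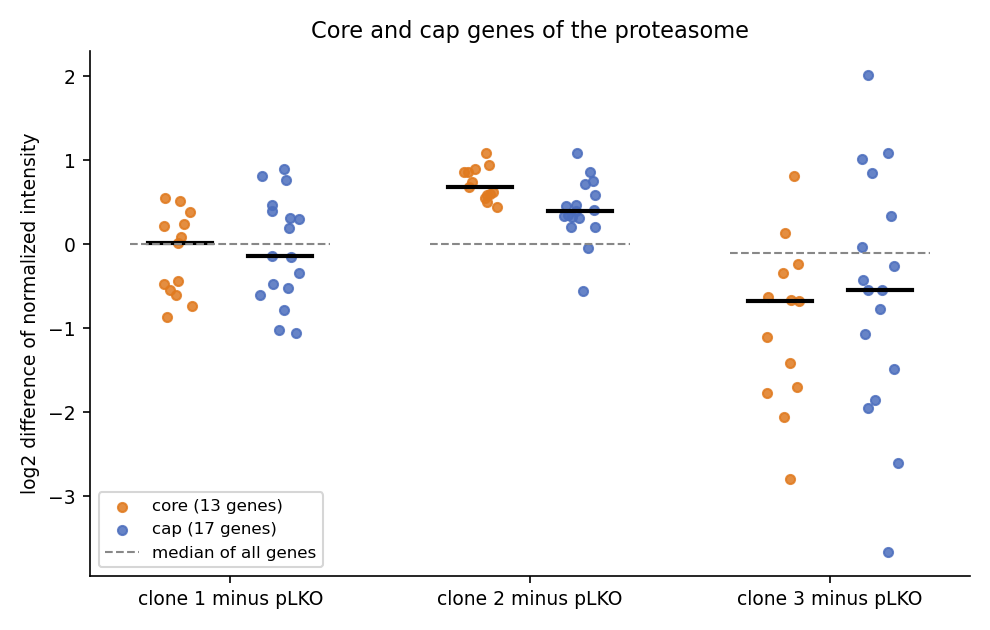
Log2 difference from pLKO (vertical axis) of the 13 core and 17 cap members in each clone, with a point for each gene, a solid line at each median and a dashed line at the median of all genes. In clone 2 the core points are all above 0, with a median of 0.68 against 0.40 for the cap, and in clone 3 both groups spread widely below and above 0.

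The 2 alternative activators, which bind the core in place of the cap and need no ATP, differed little from pLKO in clones 1 and 2. PSME3 had normalized intensities of 107, 151 and 132 in clones 1, 2 and 3, against 115 in pLKO. PSME4 had 200, 236 and 102, against 186 in pLKO. In clone 3, PSME3 was 1.15-fold higher and PSME4 1.82-fold lower, so they stood on opposite sides. PSME3 is read by 4 probe sets that disagree, with the widest range of any member in clone 1 (1.56 on the log2 scale) and clone 2 (1.36).

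Different probe sets of 1 gene agreed best in clone 2. Of the 64 probe sets annotated to a single member, 58 passed the filter, and 17 genes had more than 1 of these. All probe sets of a gene had the same sign in 7 of the 17 genes in clone 1, in 13 in clone 2 and in 5 in clone 3. The median range between probe sets of a gene was 0.60, 0.49 and 1.54 on the log2 scale in clones 1, 2 and 3. Probe sets thus disagreed most on the array where the ACTB 3'/5' ratio was highest, and the part of RNA quality in this was not tested. Of the 58 probe sets, 24 were higher than pLKO in clone 1, 52 in clone 2 and 18 in clone 3, beside 49.2%, 49.8% and 49.1% of all probe sets tested. Of the 9 members on 1 side of pLKO in all 3 clones, 5 had several probe sets tested, and 0 of the 17 genes had every probe set on the same side in all 3 clones. PSMB4 shows the size of this in clone 3. Its brightest probe set gave a log2 difference of 0.14 there, and its other 2 gave -2.90 and -3.11. For PSMB1 the other 2 gave -0.04, 0.74 and -0.87 and -0.41, 0.25 and 1.51 in clones 1, 2 and 3. For PSMD12 the second probe set gave 0.33, 0.50 and -0.43 in clones 1, 2 and 3, and for PSMD10 it gave -0.11, 0.15 and -0.69.

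**Figure D4:**
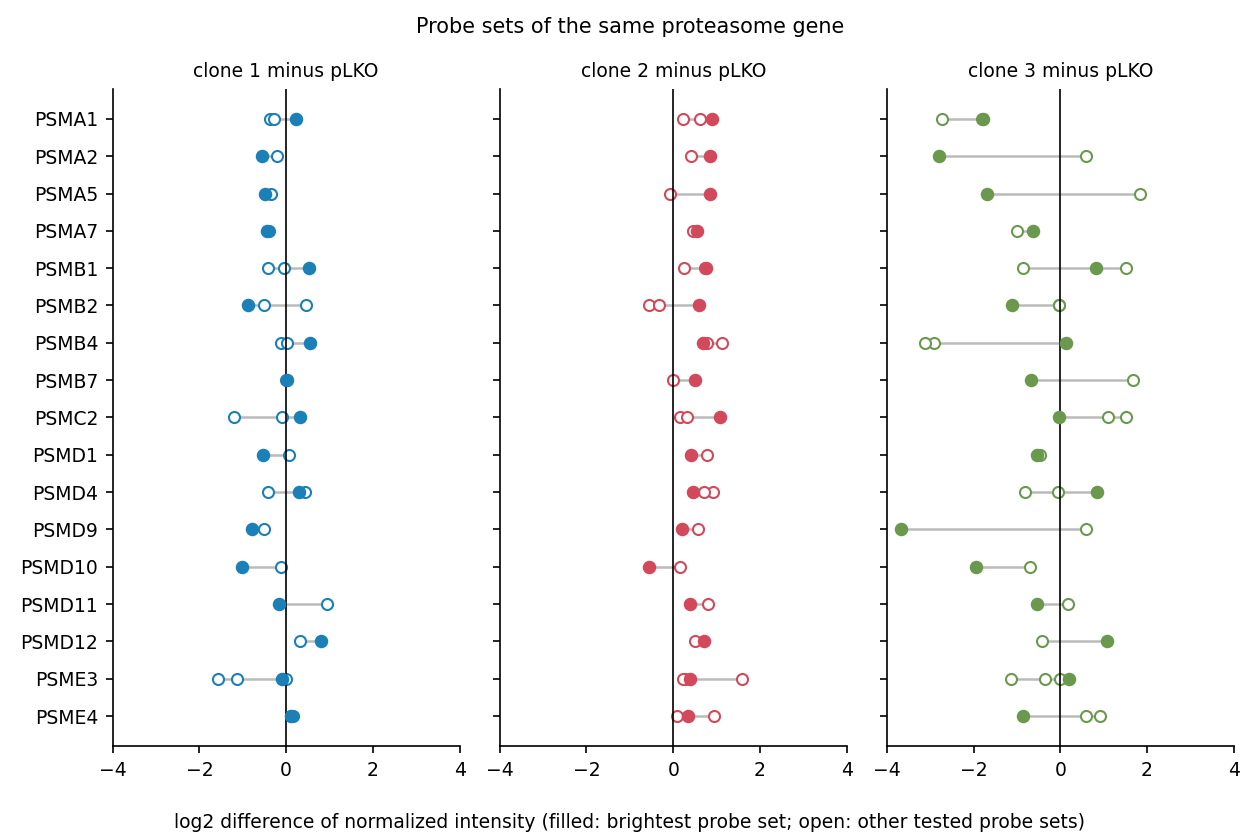
Log2 difference from pLKO (horizontal axis) of every tested probe set of the 17 members with more than 1, in a panel for each clone, with the brightest probe set of each gene filled. The probe sets of a gene lie close together in clone 2, with a median range of 0.49, and far apart in clone 3, with a median range of 1.54.

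The scaling between arrays moved the medians of clones 1 and 3 and left clone 2 positive. With median centring the members' median log2 difference was -0.63 in clone 1, 0.65 in clone 2 and -1.47 in clone 3, while the median of all genes was -0.37, 0.09 and -0.53. With the values as deposited it was -0.67, 0.91 and -2.09, beside -0.42, 0.35 and -1.07 over all genes. Relative to all genes, the members in clone 2 stood 0.53 higher after quantile normalization and 0.56 higher under both other scalings. In clone 3 they stood lower than all genes, at -0.54 after quantile normalization, -0.94 when centred and -1.01 as deposited. In clone 1 the members differed from all genes by -0.05, -0.26 and -0.26. The number of members higher than pLKO was 3, 31 and 4 in clones 1, 2 and 3 when centred, beside 28.8%, 56.2% and 31.3% of all genes. As deposited it was 3, 31 and 1, beside 26.9%, 72.5% and 14.3% of all genes.

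**Figure D5:**
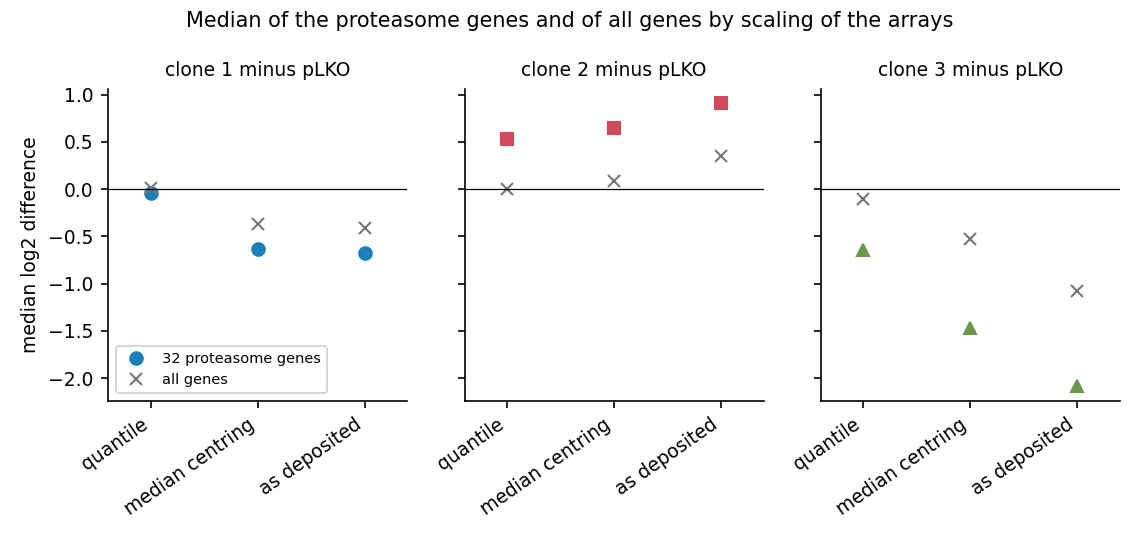
Median log2 difference from pLKO (vertical axis) of the 32 members and of all 12728 genes under quantile normalization, median centring and the values as deposited, in a panel for each clone. In clone 2 the members lie above all genes by 0.53 to 0.56 under each scaling.

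limma, fitted to the 3 clones against pLKO, called 0 of the 32 members at an adjusted p under 0.05, as it called 0% of the 27307 probe sets tested. At an unadjusted p under 0.05 it also called 0 members, where 0.754% of all probe sets passed. PSMD10 had the smallest unadjusted limma p of the members, 0.158, with an adjusted p of 1.0, and the smallest adjusted limma p of any member over the other limma settings was 0.216, with array weights. The median standard error of a member's log2 difference, the mean of the 3 clones minus pLKO, was 0.73. Before giving this error, limma draws the spread of a gene between clones toward a value shared by all probe sets tested. For PSMB1 the SD of the 3 differences was 0.16 and the standard error was 0.65. Such an error does not give the precision of the members' median in 1 clone. A paired comparison of the 3 log2 differences against 0 gave 2 members at an unadjusted p under 0.05, PSMB1 and PSMD12. At this level 8.5% of all probe sets passed, and 0 members passed after adjustment. All 3 differences share the single pLKO array, so the error of that array does not enter their spread. The p-values of this comparison thus reflect agreement between clones and leave out the error of pLKO. With 3 arrays against 1, an exact two-sided permutation test of a single gene cannot go below p = 0.5.

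The other genes of the pathway were read from lists in the same way. Of 9 further cap subunits and associated factors, 3 were higher in all 3 clones and 1 was lower, beside 18.8% and 21.3% of all genes. The 3 were ADRM1, a ubiquitin receptor of the base, ECPAS, which tethers proteasomes to other cell structures, and PSMF1, an inhibitor of the core in vitro. Their direction rests on the scaling. As deposited, ADRM1 and PSMF1 lay below pLKO in clones 1 and 3, and ECPAS lay below it in clone 3. ADRM1 had log2 differences of 0.49, 0.76 and 0.41 in clones 1, 2 and 3. UCHL5, the deubiquitinase that ADRM1 recruits, was on the opposite side, at -0.36, -0.07 and -0.83. The 5 chaperones of core assembly went both ways across the clones, and POMP, which closes the maturing core, had 0.19, 0.45 and -0.69. Of the interferon-inducible subunits and activators, 3 were tested, PSMB8, PSMB10 and PSME1. Their clone 3 differences were -1.57 to -2.02, with PSMB8 and PSMB10 at the floor there. All 3 were thus at least 1.5-fold lower in clone 3, beside 34.6% of all genes. In clones 1 and 2, PSMB8 had 0.33 and 0.18, and PSMB10 had 0.17 and 0.64. PSME1 had -0.13 and 0.22 in these clones.

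Complexes related to the cap and unrelated to it were set beside the members. Subunits of the COP9 signalosome resemble those of the lid. Its 9 genes had median log2 differences of -0.35, 0.10 and -0.96 in clones 1, 2 and 3. Of them, 3 were lower in all 3 clones, beside 21.3% of all genes. As deposited, COPS7A of these 3 lay above pLKO in clone 2. The 7 tested genes of the CCT chaperonin, which folds actin and tubulin, had 0.01, 0.18 and -0.59. Of these 7, 3 were higher in all 3 clones, beside 18.8% of all genes. As deposited, these 3 (CCT3, CCT6A and CCT7) lay below pLKO in clones 1 and 3. In clone 2 the median of the members, 0.53, was above the medians of both complexes. All 7 CCT genes and 5 of the 9 COP9 genes were also higher than pLKO there, beside 49.3% of all genes tested. The luminal and HER2 markers, like the members, were highest in clone 2 and lowest in clone 3 by their medians, which were 0.31, 0.56 and -1.11. In clone 2, 9 of the 10 were higher than pLKO. In all 3 clones 1 was lower and 4 were higher, beside 21.3% and 18.8% of all genes. As deposited, KRT8, KRT18 and ESR1 of the 4 lay below pLKO in clone 3, and GATA3 stayed above it in all 3 clones. The summed normalized intensity of the 10 luminal and HER2 markers was 29807, 27853 and 21904 in clones 1, 2 and 3, against 17925 in pLKO. None of them was at the floor on any array. The 4 fibroblast markers summed to 340, 246 and 519, against 235 in pLKO, with 3 of them tested and COL3A1 at the floor in clones 1 and 3 and in pLKO. The part of these markers in the members' differences was not tested.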

How the data were processed

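Total RNA of 3 DCD shRNA clones and pLKO control cells was hybridized to Affymetrix U133 Plus 2.0 arrays. The deposited values are linear intensities, 1 per probe set and array. The study's methods name dChip, but the program behind the deposited intensities is not given in the sources read. Array medians differed, so the values were taken as not normalized. Intensities of 0 were set to 0.1, all 54675 probe sets were quantile normalized on the log2 scale, values under 16 were set to 16 and 62 control probe sets were dropped. Tests covered the brighter part, 27307 probe sets whose mean log2 value reached that of the median probe set. Of all probe sets, 41097 were annotated to 1 gene, 1801 to several and 11777 were unnamed. Before normalization, 43.9%, 39.3% and 55.1% of probe sets lay under the floor in clones 1, 2 and 3, against 43.4% in pLKO. The number of arrays limits the precision, and nothing in the labels names separate cultures of a clone.

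limma 3.58.1 (R 4.3.3) compared the 3 clones with pLKO, with 2 residual degrees of freedom and Benjamini-Hochberg adjustment, assuming that the lone pLKO array varies like the clones. The fit was tested on simulated data. Alternatives were median centring, values as deposited, floors of 1 and 64, other filters, other choices of probe set and a mean in place of a median. Further ones were the cap without chaperones, other limma settings, a paired t-test of the 3 differences and each clone left out. Probe sets with names ending in _x_at, which can cross-hybridize, were left out in an alternative chosen after seeing the data. The members and lists were chosen with earlier results of these data known. Values per array were given for the catalytic subunits, the base chaperones, PSMD4, PSMD14, the activators and the members on 1 side of pLKO in all clones. PSMA1, PSMA2, PSMA5, PSMD8 and the other genes with values were named after their values were seen. Promoter windows were read from RefSeq (GRCh38.p14). Figures were drawn with matplotlib 3.10.9.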

Additional observations from a re-analysis of the deposited data

How the results depend on the processing

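No matching of clones to separate controls was possible because a single pLKO array serves all 3 clones. The paired t-test given with the limma results sets all 3 clones against that same array. The core minus cap difference in clone 1, 0.16, turned to -0.070 with means in place of medians, -0.23 without the chaperones, -0.078 with the mean of all probe sets, -0.24 with the probe set brightest in pLKO and -0.14 without _x_at probe sets. In clone 3, at -0.13, it became -0.37 with means, 0.047 with the mean of all probe sets and -0.45 without _x_at probe sets. The members' median moved to -0.63 in clone 1 and -1.47 in clone 3 with median centring, and to -0.67 and -2.09 as deposited. In clone 2 it stayed between 0.48 and 0.91 over 10 alternatives, of which the floors of 1 and 64 left it unchanged. The count lower in all comparisons, 2, was 1 under each other scaling and 2 to 15 with a clone left out. The count higher, 7, was 2 when centred, 1 as deposited and 7 to 16 with a clone left out. The mean difference of PSMB4 turned to -0.0016 when centred, -0.14 as deposited and -0.31 with the mean of all probe sets, and as deposited those of PSMD4 and PSMD14 turned to -0.046 and -0.12. The cause was not tested. limma called 0 members under every setting, with 0 to 2 at an unadjusted p under 0.05. The dim signal of clone 3 and the single pLKO array limit all of these values.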
